A study of Homo sapiens with 6 samples.

Results

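The genes described here are the 4 VPS13 genes (VPS13A, VPS13B, VPS13C and VPS13D) and the 2 ATG2 genes (ATG2A and ATG2B) of human cells. They were chosen by name as 1 protein family, with no measured value in the rule, though earlier results of these data were known at the choice. They are 6 of the 57905 genes in the count files, of which 24945 had at least 1 count. The RNA came from H929 (NCI-H929), an established multiple myeloma cell line, a tumour of plasma cells. In the 3 IRE1-treated samples, 5 µg of total RNA was kept for 1 h at 37 °C in buffer with 2 µg of recombinant human IRE1 (amino acids 467 to 977, the part of the protein that holds the kinase and the RNase), and in the 3 control samples the same amount of RNA was kept in the same buffer without the enzyme. All 6 reactions were stopped at 95 °C for 5 min, poly(A)-containing mRNA was purified, and each sample gave 1 RNA-seq library. The comparison asks which mRNAs lose reads when RNA without cells or proteins of its own is exposed to IRE1, so the samples are not a model of endoplasmic reticulum (ER) stress in living cells.

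VPS13 and ATG2 proteins are bridge-like lipid transfer proteins: long rods with a hydrophobic groove that lets phospholipids flow between membranes that lie close together. Each one works at its own contact sites, and scramblases at the ends of the rod spread the arriving lipid over both leaflets of the membrane. IRE1 is the ER stress sensor whose RNase removes an intron from XBP1 mRNA and cuts other mRNAs, a process called regulated IRE1-dependent decay.

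IRE1 is known to cut after the G of a CUGCAG hexamer that sits in the loop of a short hairpin, so the hexamer was searched on the sense strand of the longest annotated coding transcript of each gene (GENCODE, GRCh37). The 6 transcripts held 58 hexamers, 46 in coding sequence and 12 in the 3′ UTR. A hexamer was counted as a stem-loop when base 3 of the hexamer was unpaired in a predicted hairpin, with a loop between 5 and 11 bases long, a stem of 3 or more base pairs, and 15 bases folded on either side. This held for 8 of the 58, which lay in 5 of the 6 genes. The sequences of 7 of them are shown because these places share the hexamer of the known XBP1 site, with base 3 in a predicted loop. The folds were not all alike. In the predicted XBP1 fold the whole hexamer lay unpaired in the loop. Among the printed sites this held only for the VPS13D site in exon 27, and in the others part of the hexamer was paired. The sequence of the VPS13B site is not printed here. The sequences are printed 5′ to 3′ as RNA, with the hexamer in capitals, and the site of XBP1 stands first for reference.
XBP1, exon 4 of 5, coding, chr22:29192112-29192117, minus strand, loop of 7 bases: cuacgugcaccuCUGCAGcaggugcaggcc
VPS13C, exon 27 of 82, coding, chr15:62264877-62264882, minus strand, loop of 5 bases: aacuuaaaaaagCUGCAGaggucccaaaug
VPS13D, exon 19 of 70, coding, chr1:12337909-12337914, plus strand, loop of 7 bases: agaagugaccguCUGCAGguggaaaucaag
VPS13D, exon 27 of 70, coding, chr1:12368548-12368553, plus strand, loop of 7 bases: uggacaucuuugCUGCAGagagacauccga
VPS13D, exon 70 of 70, 3′ UTR, chr1:12570879-12570884, plus strand, loop of 7 bases: auggcagcuccuCUGCAGcuuccuccucag
ATG2A, exon 3 of 41, coding, chr11:64681650-64681655, minus strand, loop of 7 bases: augaccacaagcCUGCAGcuggcccaggag
ATG2B, exon 1 of 42, coding, chr14:96829257-96829262, minus strand, loop of 5 bases: ugccgguaccucCUGCAGagguaccugggc
ATG2B, exon 1 of 42, coding, chr14:96829233-96829238, minus strand, loop of 5 bases: cugggccacuuuCUGCAGgagaagcugagc

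Folding energies were those of the whole folded window, the hexamer with 15 bases on either side. They include pairs outside the hairpin and do not give the stability of the hairpin alone. The window of the first ATG2B site had the lowest energy, -18.7 kcal/mol, below the -11.8 kcal/mol of the XBP1 window. The VPS13C window had the highest among the printed sites, -1.2 kcal/mol. The 3 VPS13D sites folded at -4.4, -7.2 and -5.8 kcal/mol, the ATG2A site at -7.9 kcal/mol and the second ATG2B site at -10.6 kcal/mol. VPS13B had 1 stem-loop at transcript position 4994 in exon 31 of 62, with a loop of 9 bases, and VPS13A had none among its 6 hexamers.

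**Figure D1:**
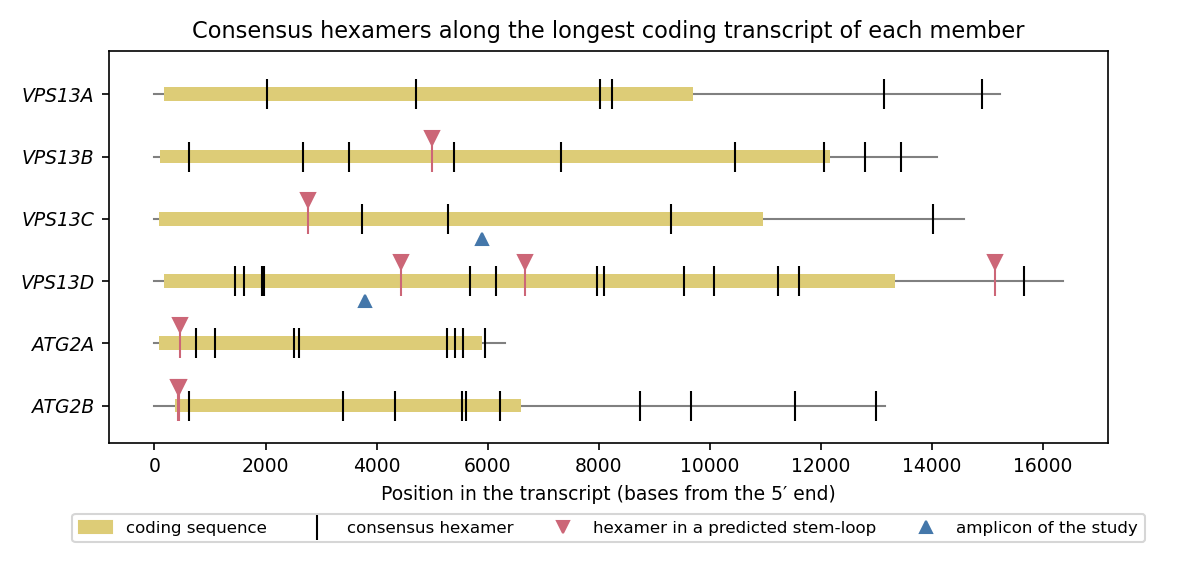
CUGCAG hexamers along the longest coding transcript of each gene, with the position in bases from the 5′ end on the x axis. Thick bars are coding sequence, ticks are hexamers, red triangles mark the 8 hexamers in a predicted stem-loop (the markers of both ATG2B sites overlap), and blue triangles mark the amplicons of the study's VPS13C and VPS13D primers.

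Such hexamers are common. The 12207 tested protein-coding genes held 41523 of them, and 6430 of these were in a stem-loop, beside 8 of 58 in the 6 genes here. Among 12207 tested protein-coding genes 86.7% held at least 1 hexamer and 36.9% at least 1 stem-loop, and among the 566 of them with a coding transcript of at least 10000 bases the shares were 99.1% and 68.0%. Per kilobase, the density of hexamers was 0.798 over all these genes, against 0.343 in VPS13C, 0.394 in VPS13A, 0.710 in VPS13B, 0.912 in ATG2B, 0.978 in VPS13D and 1.42 in ATG2A. A match of letters and a predicted fold do not show that the site was cut. With 20 bases folded on either side in place of 15, the stem-loops of VPS13B, VPS13C and ATG2A were no longer predicted, while VPS13D had 2 and ATG2B 2.

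The study's own amplicons lay in coding sequence too. The VPS13C primers, tggacagactcaaagctctct (forward) and cctggttgatatcattgttataaa (reverse), matched the transcript at positions 5840 to 5860 and 5919 to 5942, in exons 49 and 50, downstream of the stem-loop hexamer at position 2772. The VPS13D primers, agtgggcatggcaaatagag (forward) and cagaattcccaatgctgaca (reverse), matched positions 3707 to 3726 and 3872 to 3891 in exon 19, upstream of all 3 stem-loop hexamers, at positions 4431, 6667 and 15135. They are shown to place the regions that the study's PCR read against these sites. By qRT-PCR on cDNA made with oligo(dT), the study reported less of the 5′ region after IRE1 for all its selected candidates, VPS13C and VPS13D included. That is a measure of a region, whereas the gene counts here sum over all exons. Neither gene was among those in which it reported a consensus stem-loop around the cleavage site. VPS13C also held 2 hexamers in coding sequence, outside predicted stem-loops, whose surroundings resemble each other:
VPS13C, transcript position 3735, chr15:62254029-62254034, minus strand: ccacugcccaggCUGCAGaaagggcugcca
VPS13C, transcript position 5280, chr15:62234203-62234208, minus strand: ccacaguccaggCUGCAGaaagagcugcuu
These windows shared 25 of their 30 bases, position by position.

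All 6 genes had fewer reads after IRE1. Each passed edgeR's quasi-likelihood test at an adjusted p under 0.05, and in each the 3 IRE1-treated libraries lay below the 3 controls. Over all 14398 genes tested, 12.4% were called lower (1781 genes), 10.3% were called higher (1489 genes), and 20.0% had every IRE1-treated library below every control. The log2 fold changes ran from -0.52 (VPS13C) to -0.15 (VPS13B), with a median of -0.37 against 0.0045 over all genes tested. VPS13A, VPS13B, VPS13C, VPS13D and ATG2B were on the study's own list of genes with depleted exons, which was drawn from these same libraries, so for them the direction is not independent evidence.

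The calls changed when a trend on transcript length and GC content was taken out. After a smooth trend of the counts on transcript length and GC content was removed from each library, 5.09% of all genes were called lower and 8.85% higher, and of the 6 genes none was called lower and 1, VPS13B, was called higher. With scaling by library size alone the shares were 18.0% lower and 4.74% higher, and all 6 were called lower. DESeq2 called all 6 (13.7% of its genes lower and 11.9% higher). Limma on the authors' CPM (10.3% lower and 6.22% higher) called 5 of the 6 lower, all but VPS13B. The fit with the replicate number as a block (10.4% lower and 7.76% higher) called the same 5 lower. With that block and the trend removed together (4.24% lower and 7.59% higher), none was called lower and 1, VPS13B, was called higher. Without control replicate 1, 2 of the 6 were called, VPS13C and ATG2B, while the calls over all genes went from 3270 to 1681 and the lower ones from 1781 to 972. Gene counts sum reads over all exons, so they do not tell where along a transcript reads were lost.

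VPS13A tethers the ER to mitochondria and other organelles and is mutated in chorea-acanthocytosis. The gene (ENSG00000197969, chr9:79792361-80036453, plus strand) had 600, 579 and 448 normalized counts in control replicates 1, 2 and 3, and, in the same order of replicates, 329, 383 and 439 with IRE1. The groups did not overlap, but control replicate 3 and IRE1-treated replicate 3 were only a few counts apart. The mean went from 542 ± 82.3 to 383 ± 55.1 (SD, n = 3 each), or 70.7% of control. The log2 fold change was -0.50 with a standard error of 0.114 (edgeR quasi-likelihood test, Benjamini-Hochberg adjusted p = 0.00584). Without control replicate 1 it was -0.42 and the adjusted p was 0.0511, and with the length and GC trend removed it was -0.15 (adjusted p = 0.273).

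VPS13B acts at the Golgi apparatus and is the gene of Cohen syndrome. It (ENSG00000132549, chr8:100025494-100889808, plus strand) was the member with the most counts and the least change. Its normalized counts were 2064, 2080 and 2007 in the controls and 1847, 1806 and 1886 in the IRE1-treated libraries. Both groups were tight, and the gap between them was wider than either group's spread. The mean went from 2050 ± 38.0 to 1846 ± 40.1 (SD, n = 3 each), 90.0% of control, with a log2 fold change of -0.15 and a standard error of 0.0484 (edgeR, adjusted p = 0.0344). This was the least stable call: leaving out 1 library at a time gave adjusted p values of 0.0268 to 0.152 in edgeR, with a call in 2 of 6 fits. The call was lost without control replicate 1, 2 or 3 or IRE1-treated replicate 2 (adjusted p = 0.124, 0.152, 0.0664 and 0.124). With the trend removed the direction turned, to 0.17 (adjusted p = 0.0297).

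VPS13C bridges the ER to late endosomes, lysosomes and lipid droplets, and its loss causes a recessive form of early-onset Parkinson's disease. The gene (ENSG00000129003, chr15:62144588-62352672, minus strand) had 859, 776 and 707 normalized counts in the controls and 484, 504 and 648 in the IRE1-treated libraries. IRE1-treated replicate 3 was nearer to control replicate 3 than to the other IRE1-treated libraries. The mean fell from 781 ± 76.1 to 545 ± 89.5 (SD, n = 3 each), 69.8% of control. The log2 fold change of -0.52 had a standard error of 0.0994 (edgeR, adjusted p = 0.00209), and the call held in 6 of 6 fits that left out 1 library, between -0.66 and -0.44. With the trend removed the value was -0.18 (adjusted p = 0.106).

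VPS13D, the essential family member in mammals, works at mitochondria and peroxisomes, and its mutations cause a recessive ataxia. The gene (ENSG00000048707, chr1:12290087-12572099, plus strand) had 786, 740 and 683 normalized counts in the controls and 572, 567 and 645 in the IRE1-treated libraries. The groups did not overlap, with IRE1-treated replicate 3 nearest to the controls. The mean fell from 736 ± 51.7 to 595 ± 43.4 (SD, n = 3 each), 80.8% of control, with a log2 fold change of -0.31 and a standard error of 0.0750 (edgeR, adjusted p = 0.00857). The call was lost without control replicate 1 (-0.26, adjusted p = 0.0681) and without IRE1-treated replicate 2 (-0.27, adjusted p = 0.0541). With the trend removed the difference was 0.022 (adjusted p = 0.862), on the other side of 0.

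ATG2A and ATG2B carry lipid from the ER to the growing autophagosome membrane, together with the scramblase ATG9A. ATG2A (ENSG00000110046, chr11:64662018-64684681, minus strand) had 1177, 1105 and 1175 normalized counts in the controls and 870, 1034 and 954 in the IRE1-treated libraries. The controls lay close together and the IRE1-treated libraries were spread more widely, with replicate 2 highest. The mean fell from 1152 ± 40.7 to 952 ± 81.8 (SD, n = 3 each), 82.6% of control (log2 fold change -0.27, standard error 0.0659, edgeR adjusted p = 0.00789). Without control replicate 1 the adjusted p was 0.0502 (log2 fold change -0.26), and with the trend removed the value was -0.15 (adjusted p = 0.0804).

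ATG2B (ENSG00000066739, chr14:96745532-96829678, minus strand) had 879, 884 and 747 normalized counts in the controls and 546, 658 and 658 in the IRE1-treated libraries. IRE1-treated replicate 1 was the lowest and the other two were alike. The mean fell from 837 ± 77.2 to 621 ± 64.7 (SD, n = 3 each), 74.2% of control (log2 fold change -0.43, standard error 0.0839, edgeR adjusted p = 0.00227), and the call held in 6 of 6 fits that left out 1 library. With the trend removed the value was -0.12 (adjusted p = 0.252). An exact two-sided permutation test of the normalized counts gave p = 0.1 for each of the 6 genes, the smallest value that 3 against 3 libraries allow.

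**Figure D2:**
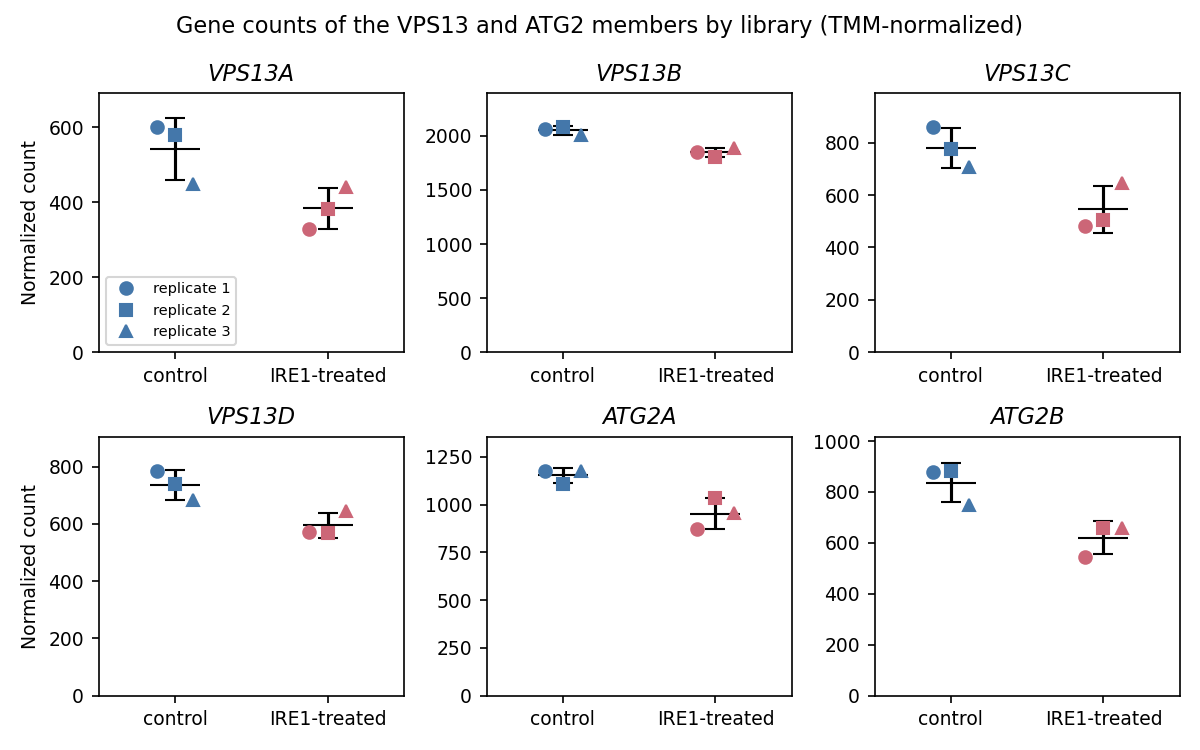
Normalized counts (TMM scaling, linear axis from 0) of each gene in the 3 control and the 3 IRE1-treated libraries. Symbols mark the replicate, horizontal lines the group mean and error bars the SD, and in every panel the IRE1-treated libraries lie below the controls, least clearly in VPS13A, where the nearest libraries had 439 and 448 counts.

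**Figure D3:**
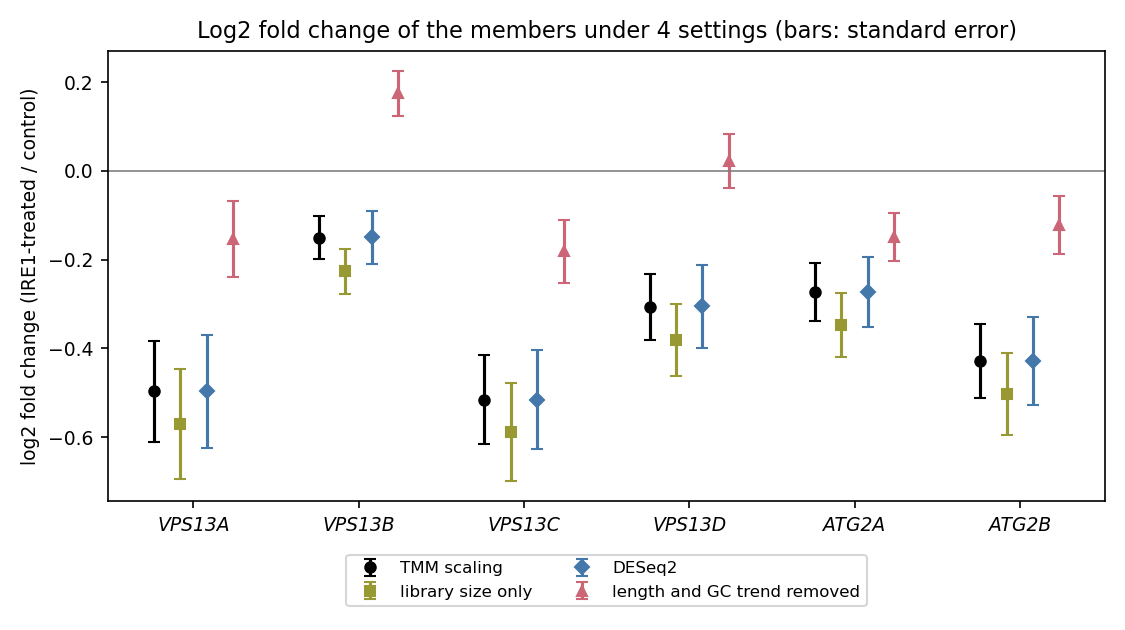
Log2 fold change (IRE1-treated against control) of the 6 genes in 4 fits, with bars of 1 standard error. All values are below 0 with TMM scaling, with library size alone and in DESeq2, whereas with the length and GC trend removed VPS13B is at 0.17, VPS13D at 0.022 and the other 4 between -0.18 and -0.12.

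The summed normalized counts of the 6 genes were 6365, 6163 and 5767 in control replicates 1, 2 and 3, and with IRE1 they were 4647, 4952 and 5229. They took 0.0265 to 0.0293% of all counts on genes in the controls and 0.0197 to 0.0234% in the IRE1-treated libraries. The mean log2 deviation of the 6 genes from their control means was 0.08, 0.02 and -0.12 in the controls and -0.49, -0.37 and -0.25 in the IRE1-treated libraries. Protein-coding genes with a longest transcript of at least 10000 bases had library medians in the same order, 0.034, 0.018 and -0.057 in the controls and -0.33, -0.27 and -0.19 in the IRE1-treated libraries.

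As levels, in normalized counts per kilobase of the union of exons, the controls ranked ATG2A first (147 ± 5.20, SD, n = 3), then VPS13B (98.0 ± 1.82), ATG2B (58.7 ± 5.42), VPS13C (39.6 ± 3.86), VPS13D (35.4 ± 2.49) and VPS13A (27.0 ± 4.09). VPS13C and VPS13D overlapped between control libraries (35.9 to 43.6 against 32.9 to 37.8), and they were the only neighbours in this order that did. Per kilobase of the longest transcript in place of the exon union, VPS13C lay above VPS13D in both groups (53.6 and 45.0 in controls, 37.4 and 36.4 in IRE1-treated samples), these 2 did not overlap between control libraries (48.5 to 58.9 against 41.7 to 48.0), and ATG2B and VPS13C did (56.8 to 67.1 against 48.5 to 58.9). In the IRE1-treated samples the levels per kilobase were 122 ± 10.5 for ATG2A, 88.3 ± 1.92 for VPS13B, 43.5 ± 4.54 for ATG2B, 28.6 ± 2.09 for VPS13D, 27.7 ± 4.54 for VPS13C and 19.1 ± 2.74 for VPS13A. VPS13C and VPS13D were thus in the other order than in the controls, by less than their SDs.

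Ratios of 2 genes within a library do not depend on how libraries are scaled, and 15 such pairs were compared. The log2 ratio did not overlap between groups in 3 pairs. In IRE1-treated against control samples the log2 ratio of VPS13B to VPS13C differed by 0.38, that of VPS13B to ATG2B by 0.28 and that of VPS13C to VPS13D by -0.22. Each of these 3 had p = 0.1 in the exact two-sided permutation test, the smallest the design allows, and the Benjamini-Hochberg adjusted p over the 15 pairs was 0.409, so no pair passed. The smallest difference of the VPS13 pairs was that of VPS13A to VPS13C, 0.03 (exact permutation p = 0.9).

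The 6 genes share long transcripts, which the choice by name did not use. The longest annotated transcripts were 16355 bases for VPS13D, 15227 for VPS13A, 14705 for VPS13B, 14578 for VPS13C, 13162 for ATG2B and 6318 for ATG2A, against a median of 3922 over 12225 tested protein-coding genes. All but ATG2A stood above the 98th percentile of length, and ATG2A at percentile 80.1. GC content was unequal: 36.8% in VPS13A and 37.1% in VPS13C, 42.9% in ATG2B, 43.1% in VPS13B, 46.9% in VPS13D and 63.9% in ATG2A, against a median of 48.1%. Both genes with the lowest GC content also had the lowest log2 fold changes, but the other 4 did not follow GC content. ATG2A, with the highest, was at -0.27, below VPS13B at -0.15. ATG2B, close to VPS13B in GC content, was at -0.43.

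Long transcripts were lower as a class. Of the 604 tested protein-coding genes of at least 10000 bases, 270 were called lower (44.7%) and 11 higher, with a median log2 fold change of -0.25, and 56.5% had every IRE1-treated library below every control. The share of that class at or below each gene's log2 fold change was 12.7% for VPS13C, 14.4% for VPS13A, 23.3% for ATG2B, 42.4% for VPS13D and 68.9% for VPS13B. Of the 2769 genes of at least 6000 bases, which include ATG2A, 1045 were called lower (37.7%), and 37.6% were at or below ATG2A. Across all 12225 genes Spearman's rho of the log2 fold change was -0.58 with transcript length and 0.24 with GC content. These points come from the same 6 libraries and genes are not independent replicates. The fit with the trend removed took out length and GC content together, and the part of each alone was not tested.

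**Figure D4:**
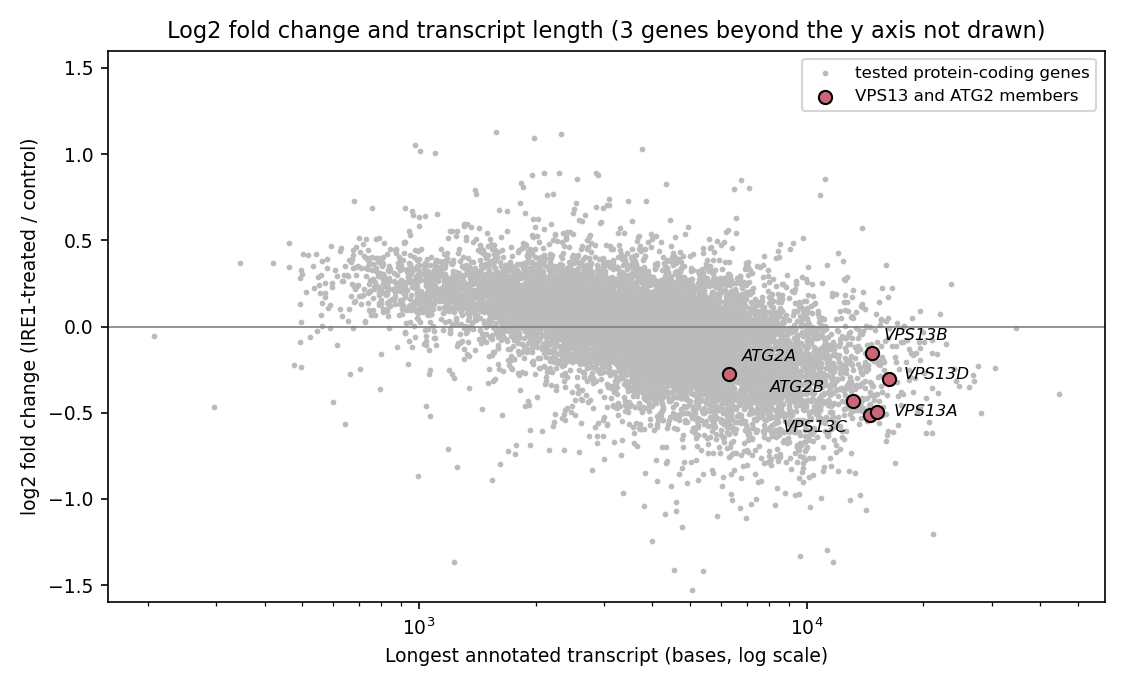
Log2 fold change (y axis) of 12225 tested protein-coding genes against the length of their longest annotated transcript in bases (x axis, log scale), with the 6 VPS13 and ATG2 genes in red and 3 genes beyond the y axis not drawn. The cloud slopes down to the right, and VPS13B lies highest and VPS13C lowest of the 6.

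The other bridge-like lipid transfer proteins were all below 0 in log2 fold change, and 2 of the 4 passed the test. BLTP1, a lipid transfer protein of the ER and plasma membrane, was lower (717 ± 89.7 normalized counts in controls and 519 ± 63.7 in IRE1-treated samples, log2 fold change -0.46, standard error 0.0975, edgeR adjusted p = 0.00341). BLTP3A was lower too (688 ± 31.6 and 556 ± 89.1, log2 fold change -0.30, adjusted p = 0.0281), though in only 1 of 6 fits that left out 1 library, and it shares exon positions with TAF11 on the other strand. BLTP2 (-0.13, adjusted p = 0.0769) and BLTP3B (-0.30, adjusted p = 0.0517) did not pass. The median of the 4 was -0.30. In the fit without the trend 0 of the 4 passed (0 also at an unadjusted p under 0.05), and with library size alone all 4 did.

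Scramblases and proteins that hold VPS13 or ATG2 at membranes were measured in 21 genes. In edgeR 0 of the 21 passed in either direction, and 7 had an unadjusted p under 0.05. So did 5021 of all 14398 genes tested, a share near that of the 21, so the 7 are not a result about these partners. The median log2 fold change of the 21 was 0.02. DESeq2 called 0 of the 21 as well. Of the 7 at an unadjusted p under 0.05 in edgeR, XK was lower. ATG9B, VMP1, WDR45, RMDN3, FAM177A1 and TSG101 were higher. ATG9A, the scramblase of the autophagosome, had 2826 ± 61.5 normalized counts in controls and 2767 ± 146 in IRE1-treated samples (log2 fold change -0.03, edgeR adjusted p = 0.715, in part on positions shared with a gene on its own strand), and XK, the partner of VPS13A, had 308 ± 17.5 and 262 ± 27.6 (-0.23, adjusted p = 0.111). In the fit without the trend 3 of the 21 were called higher. ATG9A and XK were named after their values were seen, since their proteins bind members directly.

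Of the autophagy initiation and nucleation genes, 12 of 13 were tested, 3 were lower and 1 higher, with a median of -0.14. RB1CC1, the scaffold of the ULK complex, was lower (1132 ± 48.3 and 840 ± 129, log2 fold change -0.43, adjusted p = 0.00258), as were the kinase ULK1 (-0.19, adjusted p = 0.0334) and the negative regulator RUBCN (-0.16, adjusted p = 0.0345). ULK1 was called in 2 of 6 fits that left out 1 library, and RUBCN in 1. ATG101, a small subunit of the ULK complex, was higher (683 ± 15.6 and 844 ± 56.3, log2 fold change 0.30, adjusted p = 0.00421). ATG101 and RUBCN share exon positions with genes on the other strand, and RUBCN also with a microRNA gene on its own strand. RB1CC1 alone passed after removal of the trend (-0.24, adjusted p = 0.0214).

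Among other lipid transporters of contact sites, 23 of 24 were tested, 6 were lower and 0 higher, with a median of -0.07. OSBPL8, an ER protein that exchanges phosphatidylserine for phosphoinositide at the plasma membrane, had the lowest value (638 ± 44.6 and 380 ± 42.4, log2 fold change -0.75, standard error 0.0875, edgeR adjusted p = 7.82e-05), and it was still lower with the trend removed (-0.53, adjusted p = 3.29e-04). OSBPL1A, a sterol sensor of late endosomes, followed (-0.30, adjusted p = 0.0416). The tether ESYT2 (-0.17, adjusted p = 0.0280) and the phosphatidylinositol transfer protein PITPNM1 (-0.17, adjusted p = 0.0410) had the smallest changes of the 6 that passed. Of these, OSBPL1A and PITPNM1 were called in 1 of 6 fits that left out 1 library and ESYT2 in 2, and OSBPL1A shares exon positions with genes on both strands. Removal of the trend left 2 of the 23, and with 1 library left out at a time 2 to 7 did.

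By profile, the 5 genes outside the family nearest to the mean profile of the members were the gene without a symbol ENSG00000259758, ATAD2, ARID4B, RAPGEF5 and ATR. Their root mean square differences of log2 normalized counts over the 6 libraries were 0.0114, 0.0199, 0.0227, 0.0229 and 0.0234, among 10296 genes compared. The members' own differences from that profile were 0.0587 (VPS13D) to 0.173 (VPS13B). The 5 genes were picked as the nearest of all those compared, so their smaller differences are not a result about the members.

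The enzyme's action on RNA was checked in its known substrates. BLOC1S1, a subunit of complexes that position lysosomes and a substrate of IRE1 in many cells, went from 614 ± 34.0 to 239 ± 33.0 normalized counts (log2 fold change -1.37, standard error 0.0950, edgeR adjusted p = 1.25e-06). It shares exon positions with a gene on its own strand and with ITGA7 on the other, so its counts are uncertain. XBP1 was at -0.09 and did not pass (adjusted p = 0.143), whereas with the length and GC trend removed it was lower, at -0.16 (adjusted p = 0.0120). Its 3 IRE1-treated libraries lay below the 3 controls. This is a sum over all exons of XBP1. The study's exon counts showed fewer XBP1 reads upstream of the cut and similar reads downstream. The study also reported less XBP1 mRNA after IRE1 by qRT-PCR with primers on both sides of the cut. All 9 plasma cell markers had enough counts to be tested, with means from 516 (CD38) to 88113 (JCHAIN) normalized counts. Their summed levels were 250892 to 255985 normalized counts in controls and 250997 to 268460 in IRE1-treated samples. Of the 3 T cell markers, CD3E had a mean of 976 while CD3D and CD2 were at 0.20 and 1.76. The 3 monocyte markers summed to 20.4 to 41.4, and of the epithelial markers KRT8 had 125, EPCAM 0.70 and KRT19 0.

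Antisense or neighbouring genes share exon positions with VPS13A (VPS13A-AS1), VPS13B (VPS13B-DT) and VPS13C (ENSG00000259564), each on the opposite strand. The library kit keeps strand, but the strand setting of the counting is not given in the sources used here, so reads of these partners cannot be told apart. VPS13D, ATG2A and ATG2B had no such partner.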

How the data were processed

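Poly(A)-selected RNA of 6 H929 samples (3 control and 3 IRE1-treated) was sequenced, each sample in a lane of its own, so lane and sample cannot be told apart. The series describes 6 biological replicates. Per the submitters' processing notes, cutadapt 1.12, STAR 2.5.3a, HTSeq 0.6.1p1 and edgeR 3.24.3 were used, and the study names GRCh37 with Ensembl 87. The authors deposited raw counts per gene for each library, made with HTSeq. Its strand and overlap settings are not given in the sources used here. The authors also deposited CPM values, normalized by them, used here only in an alternative. Lines that name no gene (21.4 to 23.2% of all counts) were left out, and 19615715 to 25678499 counts on genes remained per library. Counting error is part of the fits and no interval of a single count is given.

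Gene identifiers were named from GENCODE 44 on GRCh37 (55538 of 57905 matched). In edgeR 4.0.16 (R 4.3.3) genes with low counts were filtered out (14398 tested), libraries were scaled by TMM, and the quasi-likelihood test without covariates was adjusted by Benjamini-Hochberg over all genes tested, with a threshold of 0.05. Normalized counts are counts divided by the scaled library size, at the scale of the mean library. The lowest chi-square per gene between 2 libraries was 2.21, so no library was a copy. Exact permutation tests used scipy 1.17.1 and folds ViennaRNA 2.7.2. The length and GC trend was a loess curve (span 0.5) of each library, entered as offsets. Alternatives were DESeq2 1.42.0, limma 3.58.1 on log2(CPM + 1), upper quartile scaling, library size alone, a minimum of 10 counts in every library, no filter, the replicate block, the trend, and fits that left out 1 library each.

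The members, lists and tests were chosen with earlier results of these data known. Named genes are the 6 members, in each list the 2 lowest and 2 highest log2 fold changes among those past 0.05 if the mean reached 100 normalized counts, the 5 nearest profiles, BLOC1S1 and XBP1. ATG9A, XK, BLTP2 and BLTP3B were added after their values were seen, as were the partners with an unadjusted p under 0.05 in edgeR. Results of 1 further gene list are not reported here. The study's exon-level test was not used here, since exon counts were not analysed here.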

Additional observations from a re-analysis of the deposited data

How the results depend on the processing

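Removal of the length and GC trend left 2007 genes changed (733 lower) in place of 3270 (1781 lower). Of the 6 VPS13 and ATG2 genes 1 was left, VPS13B, which was higher, and their median log2 fold change was -0.14. The single values were -0.15 for VPS13A, -0.18 for VPS13C, -0.15 for ATG2A and -0.12 for ATG2B, none past the threshold, and 0.17 for VPS13B and 0.022 for VPS13D, which turned direction. Changed genes were then 0 of the other bridge-like proteins, 3 scramblases and partners, 1 initiation gene, 2 other transporters, 675 genes of at least 6000 bases and 161 of at least 10000. With the replicate block and the trend removed together 1704 genes changed (611 lower), and 1 member, VPS13B, which was higher. The median of the members was -0.13, from -0.15 (VPS13A), 0.17 (VPS13B), -0.18 (VPS13C), 0.026 (VPS13D), -0.15 (ATG2A) and -0.12 (ATG2B). The lists and classes had 0, 3, 1, 2, 598 and 145 changed genes in the same order.

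Samples with the same replicate number share only a number: their deviations correlated at -0.036, -0.0050 and -0.11. The replicate block alone gave 2613 genes and called 5 of the 6 members, with VPS13B at -0.15 (adjusted p = 0.0931), 2 initiation genes and 3 other transporters. In limma on the authors' CPM, 2073 genes changed and VPS13B was at -0.15 (adjusted p = 0.0848), with 1, 2 and 2 genes changed among the bridge-like proteins, initiation genes and other transporters. With library size alone all 4 other bridge-like proteins passed.

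Leaving out 1 library at a time gave 1630 to 4312 genes changed (972 to 2221 lower) and 2 to 6 members. The lowest counts came without control replicates 1 and 2 (1681 and 1630 genes), and 1982 came without IRE1-treated replicate 2. The log2 fold changes ran from -0.61 to -0.40 for VPS13A, -0.17 to -0.14 for VPS13B, -0.66 to -0.44 for VPS13C, -0.37 to -0.26 for VPS13D, -0.34 to -0.21 for ATG2A and -0.50 to -0.35 for ATG2B. List counts ran from 1 to 4 for the other bridge-like proteins, 0 to 4 for scramblases and partners (4 without IRE1-treated replicate 3), 2 to 3 for initiation and 2 to 7 for other transporters, and class counts from 665 to 1311 (at least 6000 bases) and 170 to 317 (at least 10000). Ratio differences that changed sign were VPS13A to VPS13C (-0.034 to 0.084), VPS13C to ATG2B (-0.18 to 0.0012) and VPS13D to ATG2A (-0.096 to 0.064), with values of -0.025, 0.0034 and 0.0055 between; none of these pairs passed a test.

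Per kilobase of the longest transcript, the control levels were 35.6 (VPS13A), 139 (VPS13B), 53.6 (VPS13C), 45.0 (VPS13D) and 182 (ATG2A), and VPS13B was at 100.4 with library size alone. With loops of exactly 7 bases VPS13B, VPS13C and ATG2B had 0 stem-loops, and with 20 bases folded on either side VPS13B, VPS13C and ATG2A had 0. With the wider consensus, in which positions 2, 5 and 6 may vary, the stem-loops were 5 (VPS13A), 10 (VPS13B), 5 (VPS13C), 11 (VPS13D), 7 (ATG2A) and 8 (ATG2B). Of 393 results under alternatives, 294 were kept by set rules. Values other than counts of genes were kept when they held their direction and side of the threshold or moved less than the spread. A count of genes was kept when it stayed within a set ratio of the main count. By that rule 4312 changed genes in place of 3270 was kept, as was 4 members in place of 6. The cause of these differences was not tested. With 3 libraries a group, no exact test of a single gene or pair could pass 0.05.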
